A study of Homo sapiens with 2 samples.

Results

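The hepatocyte transcription factor genes are the genes of the liver factor network that sets hepatocyte identity. They were chosen by name, with 8 gene symbols: HNF4A, FOXA1, FOXA2, FOXA3, CEBPA, NR5A2, PROX1 and NR1H4. Of these, 7 were found among the 16424 genes with values, and NR1H4, which encodes the bile acid receptor FXR, was not analysed here. All 7 had a mean of at least 1 CPM (tags scaled to library size, the unit of the deposited values) over both libraries, as did 13724 of all genes, and 6 of the 7 had a mean of at least 10 CPM.

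Cap analysis of gene expression (CAGE), which counts tags from the capped 5′ ends of RNAs, was performed on PLC/PRF/5, an established human hepatocellular carcinoma line. The non-treated cells (0 µg/ml) and the M2BPGi-treated cells (3 µg/ml) were each kept for 6 h and gave 1 library each, of 24040209 and 24862941 tags. M2BPGi is a glycoform of Mac-2-binding protein, a secreted ligand of galectin-3. As there is 1 library per condition, no difference has a replicate check, and the intervals given below are 95% intervals that cover counting error only.

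Hepatocyte identity depends on a small set of transcription factors that bind each other's genes as well as the genes of secreted plasma proteins and metabolic enzymes. The FOXA proteins are pioneer factors that open chromatin in the early endoderm, HNF4A and NR5A2 are nuclear receptors active through most of liver development, and CEBPA is associated with the mature, non-dividing hepatocyte. PROX1 takes part in early hepatoblast migration and later represses targets of HNF4A and NR5A2.

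The label of the cells was compared with 18 hepatocyte markers, of which 15 had values and all 15 had a mean of at least 1 CPM. Their levels summed to 7510 CPM without M2BPGi and 6263 CPM with it, and the most abundant by its mean over both libraries was KRT18, an epithelial keratin, at 1249.8 and 1592 CPM. AFP, the fetal plasma carrier protein, was at 695 and 566 CPM, while ALB, the adult one, was at 8.82 and 7.04 CPM. Both libraries thus held RNA of most hepatocyte markers, with far more AFP than ALB. Their sums also held KRT8, another epithelial keratin, at 835 and 811 CPM. ALB, TF (6.61 and 4.02 CPM), APOA1 (4.37 and 4.63), RBP4 (3.70 and 2.94) and TTR (3.62 and 2.49) were low. They lay below the median of all listed genes, 14.9 and 14.0 CPM. KRT8, TF, APOA1, RBP4 and TTR were named after their values were seen.

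Promoter windows are shown because CAGE measures transcription starts. They precede annotated starts, and the position of tags was not analysed here. RefSeq windows (GRCh38.p14) matched 6 of the 8 genes by symbol, with 2 windows each for HNF4A and NR5A2. FOXA1 and FOXA3 are given as the FOXA family genes with a window, and CEBPA and HNF4A were added after their values were seen. Each line holds the 250 bases before the annotated start, 5′ to 3′ on the strand of the gene, with matched motifs in capitals. The windows are FOXA1 at chr14:37595250-37595499 (minus strand), FOXA3 at chr19:45864076-45864325 (plus strand), CEBPA at chr19:33302535-33302784 (minus strand) and HNF4A at chr20:44355449-44355698 and chr20:44400989-44401238 (both plus strand).
FOXA1: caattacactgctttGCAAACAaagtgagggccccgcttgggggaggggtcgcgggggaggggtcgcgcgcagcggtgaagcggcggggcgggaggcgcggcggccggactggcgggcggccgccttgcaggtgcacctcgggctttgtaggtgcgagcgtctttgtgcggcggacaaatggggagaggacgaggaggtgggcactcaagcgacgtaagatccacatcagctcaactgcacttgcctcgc
FOXA3: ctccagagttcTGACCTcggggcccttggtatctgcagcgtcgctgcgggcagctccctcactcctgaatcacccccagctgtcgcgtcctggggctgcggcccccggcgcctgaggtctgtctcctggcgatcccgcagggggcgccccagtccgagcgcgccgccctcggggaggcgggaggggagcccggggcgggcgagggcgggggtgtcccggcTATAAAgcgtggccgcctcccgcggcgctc
CEBPA: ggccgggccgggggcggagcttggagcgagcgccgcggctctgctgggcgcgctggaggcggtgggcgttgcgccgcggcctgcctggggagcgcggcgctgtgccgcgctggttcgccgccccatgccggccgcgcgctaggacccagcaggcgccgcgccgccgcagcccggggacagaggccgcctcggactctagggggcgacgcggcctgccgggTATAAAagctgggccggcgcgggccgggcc
HNF4A, upstream start: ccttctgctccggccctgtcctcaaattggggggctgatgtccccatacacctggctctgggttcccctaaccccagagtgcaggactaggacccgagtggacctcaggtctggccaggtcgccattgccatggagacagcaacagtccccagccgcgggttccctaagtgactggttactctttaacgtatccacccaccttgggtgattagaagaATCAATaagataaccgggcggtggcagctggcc
HNF4A, downstream start: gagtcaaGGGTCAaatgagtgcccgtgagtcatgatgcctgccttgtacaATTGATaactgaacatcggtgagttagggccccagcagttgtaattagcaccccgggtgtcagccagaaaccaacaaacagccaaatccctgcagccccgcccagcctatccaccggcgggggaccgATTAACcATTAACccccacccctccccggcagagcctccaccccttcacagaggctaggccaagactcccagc

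The motifs were searched on both strands: TATAAA, the FOXA motifs TGTTTAC and TGTTTGC, the HNF1 motif GTTAAT, the ONECUT motif ATCAAT, the nuclear receptor motifs AGGTCA and GGGTCA, and the CEBP motif TTGCNNAA. The FOXA motifs differ from each other at 1 position, as do the nuclear receptor motifs. The windows of CEBPA and FOXA3 each held TATAAA at positions -30 to -25 before the start, a motif found in 10.7% of 35116 windows of the same length. The FOXA1 window held the FOXA motif TGTTTGC on its reverse strand at -235 to -229 (3.2% of windows, against 3.0% for TGTTTAC). The FOXA3 window held AGGTCA in reverse at -239 to -234 (12.1% of windows).

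The windows of HNF4A differed from each other in their motifs. The upstream one held only ATCAAT, at -33 to -28 (5.6% of windows). The downstream one held GGGTCA at -243 to -238 (12.1%), ATCAAT in reverse at -200 to -195 and GTTAAT in reverse at both -73 to -68 and -66 to -61 (6.2%). TTGCNNAA, present in 9.1% of windows, was in none of these 5. Of the windows not printed, for length, the first of NR5A2 held TATAAA in reverse at -201 to -196 and AGGTCA at -84 to -79, its second held TGTTTAC in reverse at -105 to -99 and GTTAAT in reverse at -27 to -22, and that of NR1H4 held AGGTCA in reverse at -230 to -225 and GTTAAT at -53 to -48. The windows of CEBPA and FOXA3 were rich in G and C (81.2% and 75.2%, against a median of 58.0% over all windows), FOXA1 was at 67.2%, and those of HNF4A were at 58.4% and 58.0%. A match is a description of the letters and not of a bound site, and the CPM values are per gene, so the starts of HNF4A could not be told apart.

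HNF4A (ENSG00000101076), the nuclear receptor that occupies a large share of active liver promoters, was at 39.1 CPM in non-treated cells (95% Poisson interval 36.7 to 41.7) and 43.8 CPM in M2BPGi-treated cells (41.3 to 46.5). These rest on 941 and 1090 tags. Its log2 ratio (M2BPGi-treated over non-treated) was 0.16, where 1 CPM was added to each value of every gene, here and below, so that ratios of low genes come out too small. At 1.12-fold, HNF4A stayed under the 1.2-fold from which a difference was counted. The 95% Clopper-Pearson interval for the log2 ratio of its tags was 0.04 to 0.29. Of all 13724 genes, 22.8% had such an interval above 0.

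NR5A2 (ENSG00000116833), which encodes LRH-1, a regulator of bile acid and cholesterol genes, had 43.3 CPM in non-treated cells (40.7 to 46.0) and 40.9 CPM in M2BPGi-treated cells (38.4 to 43.5). Its log2 ratio was -0.08 (-0.21 to 0.04), an interval that held 0. PROX1 (ENSG00000117707), a homeodomain repressor, had 19.1 CPM in non-treated cells (17.4 to 20.9) and 17.4 CPM in M2BPGi-treated cells (15.8 to 19.1). Its log2 ratio of -0.13 (-0.33 to 0.06) was the lowest of the 7, and its interval held 0 too.

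Of the FOXA genes, FOXA1 (ENSG00000129514) had the highest level, with 35.5 CPM in non-treated cells (33.1 to 38.0) and 36.2 CPM in M2BPGi-treated cells (33.9 to 38.6). FOXA3 (ENSG00000170608) had 22.5 CPM (20.6 to 24.4) and 22.3 CPM (20.5 to 24.3). Both were nearly level between the libraries. The log2 ratio was 0.03 for FOXA1 (-0.11 to 0.17) and -0.01 for FOXA3 (-0.18 to 0.16), and the sign of FOXA3 depended on how the libraries were scaled, with 0.04 after TMM scaling and 0.05 with the median of all genes set to 0.

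FOXA2 (ENSG00000125798), which acts with FOXA1 in the specification of the liver, stood apart from both. It had 12.8 CPM in non-treated cells (11.4 to 14.3) and 18.4 CPM in M2BPGi-treated cells (16.7 to 20.2), from 308 and 457 tags. Its log2 ratio of 0.49, or 1.40-fold, was the highest of the 7, with an interval of 0.31 to 0.73. Of all 13724 genes, 97.1% had a lower ratio, and 605 others (4.4%) lay within 0.1 of it.

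CEBPA (ENSG00000245848), the leucine zipper factor that restrains hepatocyte division, had the lowest level of the 7 in both libraries. It had 5.95 CPM in non-treated cells (5.01 to 7.01) and 8.12 CPM in M2BPGi-treated cells (7.04 to 9.33), from 143 and 202 tags. Its log2 ratio was 0.39, or 1.31-fold, and its wider interval of 0.13 to 0.77 reflects the few tags. With a pseudocount of 5 CPM the ratio was 0.26, just under 1.2-fold. Of all genes, 94.1% had a lower ratio, and 1116 others (8.1%) lay within 0.1 of it.

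**Figure D1:**
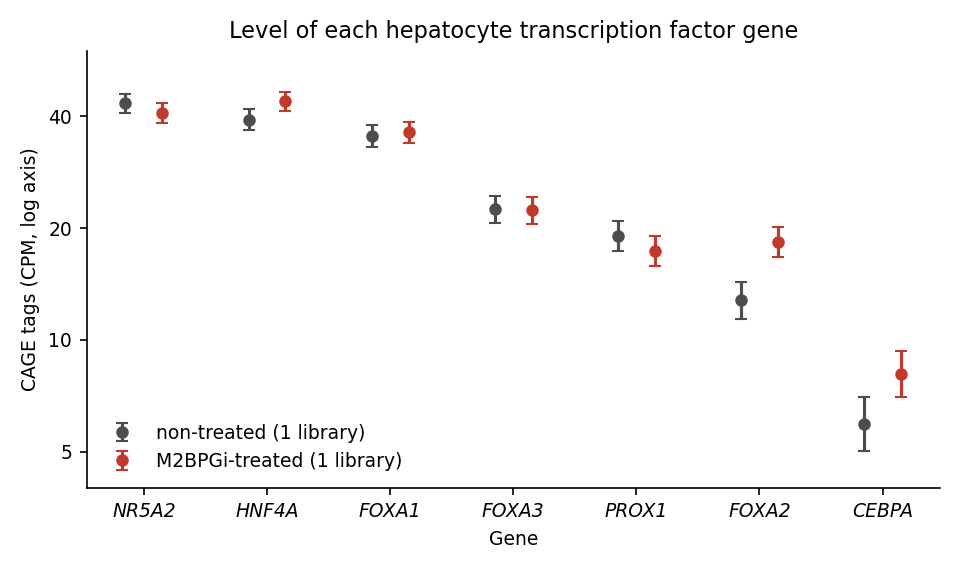
CAGE level in CPM, on a log axis, of the 7 genes in the library of non-treated cells (grey) and that of M2BPGi-treated cells (red), with bars for the exact 95% Poisson interval of the tags. The intervals of the 2 libraries are apart for FOXA2 and CEBPA and overlap for the other 5 genes. The ratio interval was above 0 for FOXA2, CEBPA and HNF4A, 3 of the 7 genes, against 22.8% of all 13724 genes. It was below 0 for 0 of the 7, against 31.5% of all genes.

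As CAGE gives 1 tag per capped 5′ end, levels were compared between genes in CPM without division by transcript length. In non-treated cells the order from high to low was NR5A2, HNF4A, FOXA1, FOXA3, PROX1, FOXA2 and CEBPA, over a 7.28-fold range. The tag ratios of neighbours in this order had 95% Clopper-Pearson intervals above 0, the lowest being HNF4A over FOXA1, with a log2 ratio of 0.14 (0.01 to 0.28), and NR5A2 over HNF4A, with 0.15 (0.02 to 0.27). Under the planned rule, however, neighbours whose Poisson intervals overlap were not said to differ beyond counting error. In this library that held for NR5A2 and HNF4A, for HNF4A and FOXA1, and for FOXA3 and PROX1. In M2BPGi-treated cells the order was HNF4A, NR5A2, FOXA1, FOXA3, FOXA2, PROX1 and CEBPA, over 5.40-fold. Here the log2 ratio of HNF4A to NR5A2, 0.10 (-0.02 to 0.22), and that of FOXA2 to PROX1, 0.08 (-0.11 to 0.27), had intervals that held 0, while those of the other neighbours did not. These were the pairs whose places differed between the libraries. In M2BPGi-treated cells the Poisson intervals of both pairs overlapped, as did those of NR5A2 and FOXA1. The median over all listed genes was 14.9 CPM without M2BPGi and 14.0 CPM with it, with 5 of the 7 above it in the first library and 6 of the 7 in the second, FOXA2 being the gene below it in the first and above it in the second. The summed level of the 7 was 178 and 187 CPM, a log2 ratio of tags of 0.07 (0.01 to 0.13).

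With M2BPGi, 2 of the 7 genes (FOXA2 and CEBPA) were higher by at least 1.2-fold, against 13.0% of all 13724 genes. On the other side, 0 of the 7 were at least 1.2-fold lower, against 24.2% of all genes, and 5 lay between. With 7 genes, 1 gene more or less moves such a share by much, so these counts are read as a description. The median log2 ratio of the 7 was 0.03, beside -0.05 for all genes, whose middle 95% ran from -0.67 to 0.52.

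As deposited, 1787 genes were higher by at least 1.2-fold and 3323 lower, so that 35.0% of these were higher. After TMM scaling, 2341 were higher and 2702 lower (46.4% higher), and with the median of all genes set to 0, 2420 and 2630 (47.9% higher). Under either scaling 2 of the 7 were at least 1.2-fold higher and 0 lower, and the median of the 7 was 0.08.

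**Figure D2:**
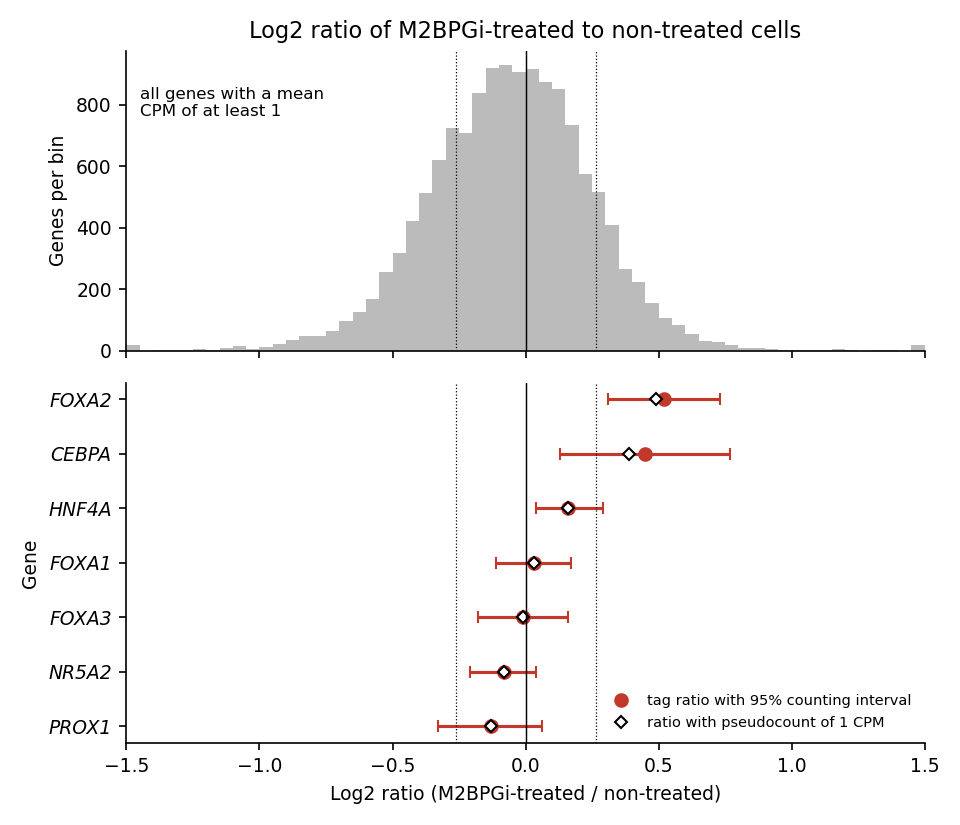
Log2 ratio (M2BPGi-treated over non-treated) for all 13724 genes with a mean of at least 1 CPM (upper panel, genes per bin, with values beyond -1.5 and 1.5 in the outer bins) and for the 7 genes (lower panel, red points for the tag ratio with 95% Clopper-Pearson intervals, diamonds for the ratio with a pseudocount of 1 CPM). Dotted lines mark 1.2-fold; FOXA2 at 0.49 and CEBPA at 0.39 lie past it and the other 5 genes between the lines.

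Shares within a family do not depend on how the libraries are scaled. FOXA1 gave 50.1% of the FOXA tags in non-treated cells (95% Clopper-Pearson interval 47.7 to 52.6) and 47.1% in M2BPGi-treated cells (44.8 to 49.3). FOXA3 gave 31.7% (interval 29.5 to 34.0) and 29.0% (27.0 to 31.1). FOXA2 gave 18.1% (16.3 to 20.0) and 23.9% (22.0 to 25.9), so that FOXA2 alone of the 3 had shares whose intervals were apart. FOXA1 was the most abundant and FOXA2 the least abundant in both libraries. Together the 3 genes had 70.8 and 76.9 CPM, a log2 ratio of tags of 0.12 (0.03 to 0.22).

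HNF4A shares its family with HNF4G, a close relative best known from the gut. HNF4A gave 56.1% of the tags of the pair in non-treated cells (53.7 to 58.5) and 63.2% in M2BPGi-treated cells (60.9 to 65.5). HNF4G had 30.7 and 25.5 CPM, with a log2 ratio of -0.26 (-0.42 to -0.11). At 1.2-fold, 0 of the 2 were higher and 0 lower, against 13.0% and 24.2% of all genes. The ratio was above 0 for HNF4A and below 0 for HNF4G. Their sum was nearly level, at 69.8 and 69.3 CPM. Its log2 ratio of tags was -0.01 (-0.11 to 0.09), a sign that the scaling could turn.

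CEBPA was a minor part of the CEBP family, whose members can pair with each other through their leucine zippers. It gave 1.94% of the tags of CEBPA, CEBPB, CEBPD, CEBPE and CEBPG in non-treated cells (1.64 to 2.28) and 2.05% in M2BPGi-treated cells (1.78 to 2.35), and these intervals overlapped. The highest of the family by mean level was CEBPB, a factor of the acute phase response, with 113 and 155 CPM and a log2 ratio of 0.46 (0.39 to 0.54). CEBPG, a partner that lacks an activation domain, had 73.2 and 106 CPM (0.53, 0.45 to 0.62), and CEBPD, also an acute phase factor, had 115 and 126 CPM (0.13, 0.06 to 0.21). CEBPE, a myeloid factor, was at 0 tags in both, which allows up to 0.125 and 0.121 CPM. Hence 3 of the 4 family members with a mean of at least 1 CPM were higher by 1.2-fold with M2BPGi, beside 13.0% of all genes, and the median of the 4 was 0.43. With a pseudocount of 5 CPM, CEBPA was not among them, which left 2.

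**Figure D3:**
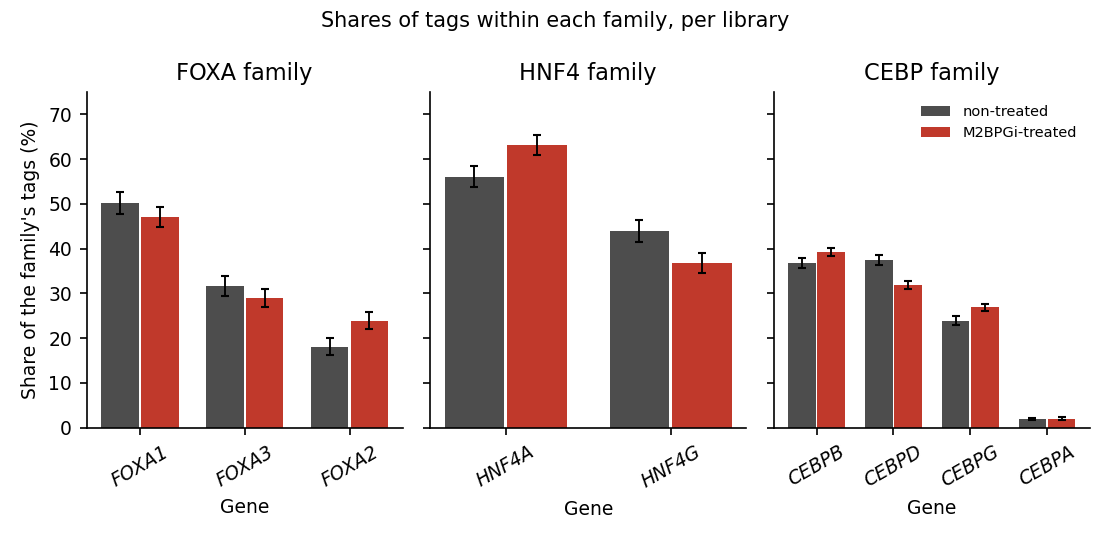
Share of the tags of each family, in percent, given by each gene in non-treated cells (grey) and M2BPGi-treated cells (red), 1 library each, with 95% Clopper-Pearson intervals; CEBPE, at 0 tags, is not drawn. The share of FOXA2 was 18.1% and 23.9%, that of HNF4A 56.1% and 63.2%, and that of CEBPA 1.94% and 2.05%.

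In the wider families, FOXA1 was second of 21 FOX genes by mean level, behind FOXN2 at 38.4 and 40.8 CPM, with FOXA3 at rank 6 and FOXA2 at rank 9. Of the 19 FOX genes with a mean of at least 1 CPM, 3 were at least 1.2-fold higher and 1 was lower (13.0% and 24.2% of all genes), with a median log2 ratio of 0.08. The 3 were FOXA2 and, named after their values were seen, FOXO3 (0.57) and FOXC1 (0.36, with an interval of -0.03 to 1.04 that held 0), and the 1 was FOXO1. Among 31 nuclear receptor genes, NR5A2 was at rank 3 and HNF4A at rank 4. The highest was NR4A1, an immediate-early orphan receptor, with 96.2 and 72.2 CPM. Of 29 such genes with a mean of at least 1 CPM, 5 were higher and 8 lower by this fold, against 13.0% and 24.2% of all genes. The 5 were PPARG (0.32), NR1H3, NR1D2 (0.30), THRA (0.27) and RARG (0.48). The 8 were NR4A1 (-0.41), RXRB (-0.70), NR4A2 (-0.47), NR4A3 (-0.50), NR6A1 (-0.45), NR2C2 (-0.43), NR3C2 (-0.34) and NR2C1 (-0.28). Of these, all but NR1H3, NR4A1 and RXRB were named after their values were seen, and NR5A2 and HNF4A were in neither group. The counting intervals of NR1D2 (-0.01 to 0.75), THRA (-0.07 to 0.73) and NR3C2 (-1.09 to 0.09) held 0.

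Noncoding partners of the 7 genes were looked up by name. LINC00261, a noncoding RNA next to FOXA2, had 4.24 CPM in non-treated cells (3.46 to 5.15) and 5.51 CPM in M2BPGi-treated cells (4.63 to 6.51). Its log2 ratio of 0.31 had the sign of that of FOXA2, from 102 and 137 tags, but its interval held 0, with an upper bound of 0.76. CEBPA-AS1, listed under 2 identifiers, was at 0 tags in both libraries. CEBPG, described above, lies within 100 kb of CEBPA in GENCODE v29 (GRCh38), on the opposite strand. Genes within 100 kb of a member lay on both sides of 0. Near HNF4A these included PKIG (0.65) and FITM2 (-0.48), both named after their values were seen.

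For 6 of the 7 genes, the closest of the other liver factors in log2 ratio is given over the 2 libraries, which give 1 ratio per gene, so many genes share any given value. FOXA2 was closest to CEBPB (0.46), CEBPA to NR1H3 (0.33), which encodes the oxysterol receptor LXR alpha, and HNF4A to PPARA (0.16), the fatty acid receptor. FOXA1 was closest to HHEX (0.06), FOXA3 to NR2F2 (-0.01) and NR5A2 to KLF6 (-0.05). Within 0.1 of HNF4A, FOXA1, FOXA3, NR5A2 and PROX1 lay 3003 to 3641 other genes, against 605 for FOXA2 and 1116 for CEBPA.

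Of 28 other liver factors, 24 had values and 23 a mean of at least 1 CPM. Their median log2 ratio was 0.06, with 4 at least 1.2-fold higher and 3 lower, shares of 17.4% and 13.0%, against 13.0% and 24.2% of all genes. The 4 were CEBPB, CEBPG, NR1H3 (11.4 and 14.6 CPM) and ATF5, a leucine zipper factor rich in liver (8.36 and 14.9 CPM, log2 ratio 0.76). The 3 were RXRB, a partner of many nuclear receptors (16.5 and 9.81 CPM, -0.70), ONECUT2, a factor of biliary and hepatocyte lineages (14.4 and 11.3 CPM, -0.31), and FOXO1, an insulin-controlled factor (8.74 and 6.64 CPM, -0.35), the last named after its values were seen.

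Of 18 coregulators that such factors recruit, all had values and 17 a mean of at least 1 CPM, with 2 higher and 2 lower (11.8% each, against 13.0% and 24.2% of all genes) and a median log2 ratio of -0.14. NCOA6, a coactivator, had 19.9 and 25.3 CPM (0.34), and HDAC3, the deacetylase of the NCOR complexes, had 22.0 and 27.4 CPM (0.31). CITED2, a partner of CBP and p300, had 25.0 and 20.2 CPM (-0.29), and CREBBP, the acetyltransferase CBP, named after its values were seen, had 4.83 and 3.78 CPM (-0.29, with an interval that held 0). After TMM scaling, 0 coregulators were lower by this fold.

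Known target genes of the factors were described next, beside the 24.2% of all genes that were lower and the 13.0% that were higher. Of 14 HNF4A targets with values, 13 had a mean of at least 1 CPM, and 9 of these were at least 1.2-fold lower and 0 higher, with a median log2 ratio of -0.35. The counting interval of 1 of the 9 held 0. SERPINA1, the antitrypsin gene, had 671 and 455 CPM (-0.56), APOH 34.5 and 24.0 CPM (-0.51), APOB, the core protein of very low density lipoprotein, 15.6 and 11.1 CPM (-0.46), and APOM 214 and 158 CPM (-0.44). While HNF4A itself had a log2 ratio of 0.16, its targets lay mostly on the other side of 0.

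Of the 8 FOXA targets with a mean of at least 1 CPM, 8 were at least 1.2-fold lower, with a median log2 ratio of -0.37, but the counting intervals of 2 of them held 0. SERPINA1 and APOB stand on this list too, beside AFP (-0.30). After TMM scaling 5 of the 8 were lower by this fold, against 19.7% of all genes. With a pseudocount of 5 CPM it was 4 of the 8, against 16.0% of all genes.

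Of 4 CEBPA targets above the same level, 2 were lower and 0 higher, with a median of -0.23. The 2 were PCK1, the gluconeogenic enzyme gene, with 8.82 and 5.43 CPM (-0.61), and ALB (-0.29), both on the FOXA list too. After TMM scaling 1 of the 4 was lower. AGT, the most abundant of the 4, had 1781 and 1668 CPM (-0.09). PCK1, ALB and AGT were named after their values were seen. Targets of LRH-1 (5 genes, median -0.05) had 1 higher, the cyclin gene CCND1 (93.0 and 112 CPM, 0.27), and 1 lower, APOM. Targets of FXR (4 genes, median 0.03) had 0 in either direction. After TMM scaling 2 LRH-1 targets and 1 FXR target were higher, as NR0B2, a corepressor gene on both lists, named after its values were seen, lay just under the fold at 0.25. Over all target lists together, 27 genes had a mean of at least 1 CPM, of which 14 were lower and 1 higher, with a median of -0.29.

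**Figure D4:**
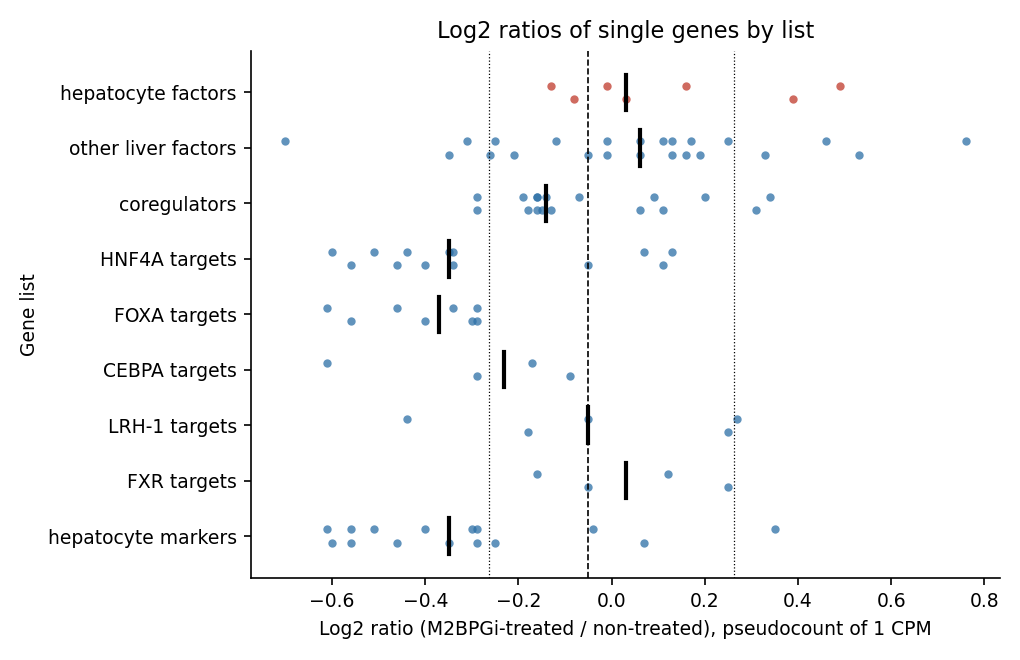
Log2 ratio (M2BPGi-treated over non-treated) for single genes with a mean of at least 1 CPM (points), by gene list, with thick bars for the median of each list, a dashed line for the median of all genes (-0.05) and dotted lines for 1.2-fold. The 7 hepatocyte factors (red) have a median of 0.03, HNF4A targets -0.35, FOXA targets -0.37 and hepatocyte markers -0.35; a gene on several lists is drawn in each.

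The target lists overlap with the hepatocyte markers, by 6 of 14 measured HNF4A targets and 5 of 9 measured FOXA targets. Of the 15 markers, 11 were at least 1.2-fold lower and 1 higher (73.3% and 6.67%, against 24.2% and 13.0% of all genes), with a median log2 ratio of -0.35. The fibrinogen genes FGB (950.0 and 623 CPM, -0.61), FGA (1015 and 687 CPM, -0.56) and FGG (1402 and 987 CPM, -0.51) were among the 11, and KRT18 (0.35) was the 1. In such bulk libraries, fewer cells of a kind and less RNA per cell cannot be told apart.

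Markers of other cells were summed per library. Of 11 biliary and progenitor markers, 6 had values, with sums of 1344 and 1026 CPM, 2 lower and 0 higher. The 2 are 33.3% of the 6, against 24.2% of all genes, a difference of less than 1 gene. The most abundant was SPP1, osteopontin, with 1071 and 775 CPM (-0.47), and the other lower one was CFTR, a chloride channel of bile ducts, with 19.7 and 13.3 CPM (-0.53). Of 10 stellate and fibroblast markers 2 had values (sums of 5.20 and 4.18 CPM), the most abundant being COL3A1 at 4.53 and 3.42 CPM. Of 10 macrophage markers 2 had values, CD68 at 21.2 and 20.5 CPM and CSF1R at 0 in both. Of 6 lymphocyte markers PTPRC had values, at 0 in both, and 0 of 8 endothelial markers were analysed here. The part of the hepatocyte and biliary markers in the values of the 7 factors was not tested.

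Over all genes, the ratio was lower where transcripts were longer. When genes were put in 4 groups of like size by their longest transcript in GENCODE v29, the median log2 ratio was 0.03 in the shortest group (up to 1944 nt), then -0.03 and -0.07, and -0.12 in the longest group (from 5057 nt). FOXA1, FOXA2, FOXA3 and CEBPA fell in group 2, and HNF4A, NR5A2 and PROX1 in group 4. Of the 7, FOXA3 was the shortest (1989 nt, log2 ratio -0.01), followed by FOXA2 (2422 nt, 0.49), CEBPA (2631 nt, 0.39), FOXA1 (2862 nt, 0.03), NR5A2 (5086 nt, -0.08), HNF4A (6445 nt, 0.16) and PROX1 (8498 nt, -0.13). The Spearman correlation of length with log2 ratio was -0.50 over the 7, beside -0.16 over the 13271 genes with a length. The part of transcript length in these ratios was not tested.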

How the data were processed

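CAGE was performed on total RNA of 1 non-treated and 1 M2BPGi-treated culture of PLC/PRF/5 cells, grouped by the labels. The authors deposited CPM values per gene, rounded to 2 decimals. The submitters' processing notes name hg19, BWA and HISAT2, whereas the methods name a mouse genome; identifiers of human genes are used in the values. The assignment of tags to genes is not given in the sources used here. Columns of samples not used: 0.

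Tags were read back from the CPM steps and used for counting intervals, tag ratios, family shares and TMM factors. At totals of 24040209 and 24862941, 100% of values above 0 were whole within a rounding of 0.005 CPM, against 25.6% and 29.0% at totals 1% higher. Of values of up to 20 tags, 87.6% (non-treated) and 94.1% (M2BPGi-treated) lay within 0.1 tag of a whole number, a tolerance tighter than the rounding (0.12 tag). The unit check asked for 95% and did not accept the tags read back, so no gene was called from tags and no p-value was computed. Every tag number and interval given carries this limit, and an interval that leaves out 0 is a description. Log2 ratios used a pseudocount of 1 CPM, over genes with a mean of at least 1 CPM. A difference was counted from 1.2-fold. A count of 0 allows up to 3 tags. Intervals were checked on simulated data. TMM factors were computed in Python from the tags read back. Lists were matched by identifier, then by symbol.

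The members and lists were chosen with earlier results of these data known. Named were all 8 members, of each other list up to 4 genes per direction past 1.2-fold with a mean of at least 10 CPM, the most abundant marker of each list, noncoding partners, the nearest other liver factor and the highest gene of each family; other names are marked in the text. One gene that this rule names is left out. Alternatives were pseudocounts of 0.1 and 5 CPM, both scalings, other filters and a fold of 1.5. Python 3.11.15 with numpy 2.4.6, pandas 2.3.3, scipy 1.17.1 and matplotlib 3.10.9 was used.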

Additional observations from a re-analysis of the deposited data

How the results depend on the processing

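The log2 ratios of the 7 genes were recomputed with pseudocounts of 0.1 and 5 CPM, after TMM scaling (a shift of -0.051) and with the median of all genes set to 0 (-0.057). All 28 values lay inside the counting interval of their gene, which is no independent check, as they come from the same 2 libraries. The median of the 7 ran from 0.01 to 0.08 over these settings and the other filters. The number of genes at least 1.2-fold higher was 2 in the main setting, 1 with a pseudocount of 5 CPM, where CEBPA was at 0.26, and 1 with a mean of at least 10 CPM, where CEBPA was not counted because of its level. Of all genes, 13.0%, 8.95% and 13.2% were higher in these settings, in this order. At a fold of 1.5 the number was 0, since the highest ratio was 1.40-fold, against 1.6% of all genes. The number of the 7 that were lower was 0 in every setting tried. Of all genes, 4.04% were lower at a fold of 1.5 and 16.0% to 26.7% in the other settings.

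For the other lists, alternatives were added after seeing the data. Of 112 counts for the target lists, hepatocyte markers, coregulators and other liver factors, 80 were within 1.5 times the main count and 32 were not. At a fold of 1.5 the lower genes were few: 1 HNF4A target (9 in the main setting), 1 FOXA target (8), 1 CEBPA target (2), 0 LRH-1 targets (1), 2 hepatocyte markers (11), 0 coregulators (2) and 1 other liver factor (3). The higher ones were 0 LRH-1 targets (1), 0 hepatocyte markers (1), 0 coregulators (2) and 1 other liver factor (4). Of all genes 219 were higher (1787) and 555 lower (3323), shares of 1.6% and 4.04%. In the settings that kept a fold of 1.2, HNF4A targets lower numbered 6 to 9 and hepatocyte markers lower 8 to 12, while FOXA targets lower numbered 3 to 8, CEBPA targets lower 0 to 2, coregulators lower 0 to 2, other liver factors lower 1 to 4 and higher 3 to 6, LRH-1 targets higher 0 to 2 and FXR targets higher 0 or 1 and lower 0 or 1, the last without a filter on low values. Of all genes, 2189 (16.0%) were lower with a pseudocount of 5 CPM and 1998 (21.1%) with a mean of at least 10 CPM, where fewer genes were counted. The lists were smaller there too, with 6 of 7 HNF4A targets, 3 of 3 FOXA targets and 0 of 2 CEBPA targets lower. So were 8 of 10 hepatocyte markers, 1 of 15 coregulators and 2 of 19 other liver factors. The intervals of tag ratios between neighbours in level were also added after seeing the data. The depth limits CEBPA most, with 143 and 202 tags. No paired analysis was possible because there is 1 library per condition.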
